A study of Rattus norvegicus with 32 samples.

Results

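The sciatic nerve, which serves the hindlimb, was compared with the radial nerve, which serves the forelimb, in old rats. The comparison rests on 16 of the 32 arrays of the series, chosen by the age in the sample titles: 8 sciatic and 8 radial nerves of 8 untreated male Wistar rats aged 24 months, in which each animal gave both nerves. The other 16 arrays come from the sciatic and radial nerves of 8 untreated male Wistar rats aged 8 months (adult rats), and are used here only to set the nerve difference of the old rats beside that of the adult rats. The question behind the comparison is what sets the nerve of a limb whose muscles waste with age apart from the nerve of a limb whose muscles are better kept. Total RNA from pieces of nerve cut at the thigh and the arm was hybridised to Affymetrix rat arrays, and 31042 non-control probe sets were tested. Values are log2 intensities, and a difference of 1 unit means a fold change of 2. Differences are sciatic minus radial with their standard error (SE) over 8 pairs, and a probe set was called at an adjusted p under 0.05. Each nerve came from 1 animal on 1 array, the old and the adult rats are different animals, and a nerve trunk is a mixture of cells, in which fewer cells of a type and less RNA per cell cannot be told apart.

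A limb nerve is a cable of motor, sensory and sympathetic axons whose cell bodies lie in the spinal cord and the ganglia. Most RNA of the trunk comes from the cells around the axons, that is myelinating and non-myelinating Schwann cells, fibroblasts of the endoneurium and epineurium, perineurial cells, vessels and immune cells. Cells of the trunk keep the positional code of the embryo, in which Hox genes mark the level along the body axis and factors such as Tbx5 and Pitx1 mark the forelimb or the hindlimb. After injury Schwann cells leave the myelinating state and make trophic factors and their receptors, and Schwann cells also make most of the cholesterol that myelin needs.

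The tissue markers were those of peripheral nerve in all 16 arrays. Mbp, which encodes myelin basic protein, averaged 14.06 ± 0.08 in sciatic nerves and 14.05 ± 0.09 in radial nerves (SD, n = 8 each), near the top of the scale, whereas Chat, an enzyme of motor neuron cell bodies, averaged 4.26 ± 0.16 in sciatic and 4.34 ± 0.13 in radial nerves, near its lower end. Array medians lay between 7.94 and 7.99, and arrays correlated with each other between 0.972 and 0.995. Some arrays stood apart in other cell types. The mean of 21 skeletal muscle genes exceeded 9 in the sciatic nerves of animals 4 and 7 and in the radial nerves of animals 2, 3, 5 and 8. In the sciatic nerve of animal 1 the means of the macrophage, complement and T and NK cell lists were the highest of the 16 arrays (12.05, 12.00 and 8.18). The mean of 3 blood cell genes was lower in sciatic than in radial nerves in 7 of 8 animals. The exception was animal 3, whose sciatic nerve had the highest mean for blood cells (9.89) and for neutrophils (8.72).

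**Figure D1:**
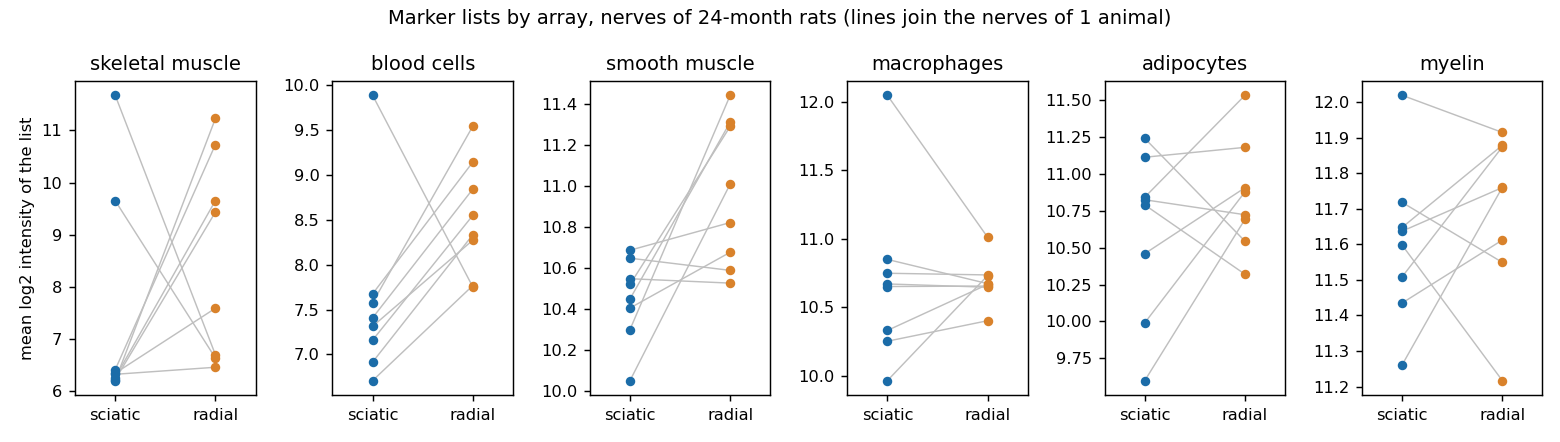
Mean log2 intensity of 6 marker lists in the sciatic (blue, left) and radial (orange, right) nerve of each 24-month rat, 1 point per array, with lines that join the nerves of 1 animal. Skeletal muscle means lie near 6.3 in most sciatic nerves and reach 11.7 in a sciatic nerve and 11.2 in a radial nerve, blood cell means are lower in the sciatic nerve of 7 of 8 animals, and 1 sciatic nerve has a macrophage mean of 12.05.

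Sciatic and radial nerves of old rats differed in 1070 of 31042 probe sets (3.45%), of which 594 (1.91%) were higher and 476 (1.53%) lower in the sciatic nerve. With 1 probe set per gene, the brightest in these arrays, 478 of 13438 genes were called (3.56%), 263 higher (1.96%) and 215 lower (1.6%), shares against which the counts of each gene list below can be read. The median size of a called difference was 0.40, and 66 called probe sets (0.213%) passed a fold change of 2, 26 higher (0.0838%) and 40 lower (0.129%). The 8 sciatic values did not overlap the 8 radial values in 206 probe sets (0.664%) and 100 genes (0.744%), and the difference had the same sign in 8 of 8 animals in 1856 probe sets (5.98%) and 890 genes (6.62%). The count of calls was sensitive to single animals and ran between 304 and 1212 with 1 animal left out. With the blood cell mean as a covariate 141 probe sets were called, and with the skeletal muscle mean as a covariate 390. Of the 100 genes named below as called in old rats, 28 were called with the blood covariate and 30 in the 10 arrays with a skeletal muscle mean under 9. Only animals 1 and 6 kept both nerves in those 10 arrays, so the animal was a random block there and the comparison was largely unpaired. In that set the part of muscle in a lost call was not told apart from the loss of arrays and pairs. The blood cell mean was itself lower in the sciatic nerve of 7 of 8 animals, so that covariate overlaps with the nerve term. The part of blood in a lost call cannot be told apart from this overlap.

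Hox genes and limb factors, the code of position, differed in both directions. Among 22 Hox genes measured, 2 were higher and 5 lower in the sciatic nerve, against 1.96% and 1.6% of all genes. Hoxc9, a gene of the posterior trunk and the hindlimb level, lay at 7.77 to 8.53 (median 8.17) in sciatic nerves, against 4.71 to 5.68 (median 5.31) in radial nerves. The lowest sciatic value stood far above the highest radial value. The difference was 2.85 ± 0.09 (adjusted p = 5.09e-07), the largest among named genes. Hoxc8, its neighbour in the HoxC cluster, was higher by 1.57 ± 0.08 (adjusted p = 2.21e-05), also without overlap, at 6.21 to 6.78 in the sciatic nerve and 4.67 to 5.16 in the radial nerve.

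The 5 Hox genes that were lower in the sciatic nerve belong to anterior groups. Hoxb2, a gene of the hindbrain and neck level, lay at 7.38 to 7.74 (median 7.68) in sciatic nerves, against 8.55 to 8.87 (median 8.75) in radial nerves. The 2 groups did not overlap, and the difference was -1.09 ± 0.06 (adjusted p = 3.46e-05). Hoxb4 (-0.97 ± 0.06, adjusted p = 5.84e-05) and Hoxa2 (-0.95 ± 0.09, adjusted p = 0.00188) were also lower without overlap, and Hoxa4 (-0.51 ± 0.09) and Hoxd3 (-0.33 ± 0.06) were lower in 8 of 8 animals with ranges that overlapped. The call of Hoxa4 was lost without animal 5 (highest adjusted p = 0.0535), and that of Hoxd3 without animal 3, 5, 6 or 8 (highest adjusted p = 0.0535). Hoxa10, of the limb-patterning posterior groups, differed by 1.11 ± 0.27, positive in 7 of 8 animals, and was not called (adjusted p = 0.0534), and 1 radial nerve, that of animal 2, lay at 6.11 beside a radial median of 5.18. Hoxa9, Hoxd9 and Hoxd10 had differences of -0.13, -0.21 and -0.23 and were not called, and of 6 members of groups 9 to 13 measured, 2 differences were positive and 4 negative. For Hoxd3 a dimmer probe set differed by 0.20 ± 0.06, of the other sign, and was not called. For Hoxc4, of the neck level, the brighter probe set was not called (0.34 ± 0.11, adjusted p = 0.106), whereas another was (0.33 ± 0.05, adjusted p = 0.0143).

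Of 26 limb transcription factors measured, 4 were higher and 3 lower in the sciatic nerve, against 1.96% and 1.6% of all genes, with a median difference of 0.02. Tbx5, the factor of forelimb outgrowth, lay at 4.27 to 4.72 in sciatic nerves, near the lower end of the scale, and at 5.77 to 7.27 in radial nerves. The groups were more than 1 log2 unit apart at their nearest values, and the difference was -2.16 ± 0.15 (adjusted p = 0.000197). The TALE factors Meis1 (-0.91 ± 0.10, adjusted p = 0.00418) and Meis2 (-0.87 ± 0.11, adjusted p = 0.00649), which act in proximal limb cells and as Hox partners, were lower with no overlap. Osr2, a zinc-finger factor of mesenchyme, was higher by 0.63 ± 0.07 (adjusted p = 0.00366), with 8.14 to 8.67 in the sciatic nerve and 7.48 to 7.92 in the radial nerve. Pitx1, the hindlimb factor, was higher in 8 of 8 animals by 0.36 ± 0.08 (adjusted p = 0.0454), but its medians of 5.44 and 5.05 were near the lower end of the scale and the call was lost with any 1 animal left out (adjusted p up to 0.106). Msx2 (0.41 ± 0.07) and Hand2 (0.34 ± 0.06) were higher in 8 of 8 animals, and both calls were lost without animal 3, 5 or 8 among others (highest adjusted p = 0.0623 and 0.071). Their dimmer probe sets, at mean levels of 4.57 to 5.36, were not called.

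Dlx1, a homeobox gene of the forebrain and limb named for the size of its difference, was higher in 8 of 8 animals by 1.24 ± 0.18 (adjusted p = 0.0122). The rule that names genes for size took only called genes with the same sign in 8 of 8 animals. That count was thus fixed by the choice for Dlx1, and below for C3, Cfi, Fgf5, Ngfr, Cdkn2b, Frzb and Ccn1 among others. The sciatic values of Dlx1 spread from 5.14 to 8.08 around a median of 6.71. Its radial values spread from 4.92 to 6.40 around 5.51, so the groups overlapped. Larger still were differences of probe sets that have no gene name here, at 3.17 ± 0.09 (adjusted p = 2.25e-07), with means of 9.13 in sciatic and 5.96 in radial nerves, 2.19 ± 0.11, -1.83 ± 0.22 and -1.67 ± 0.17.

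**Figure D2:**
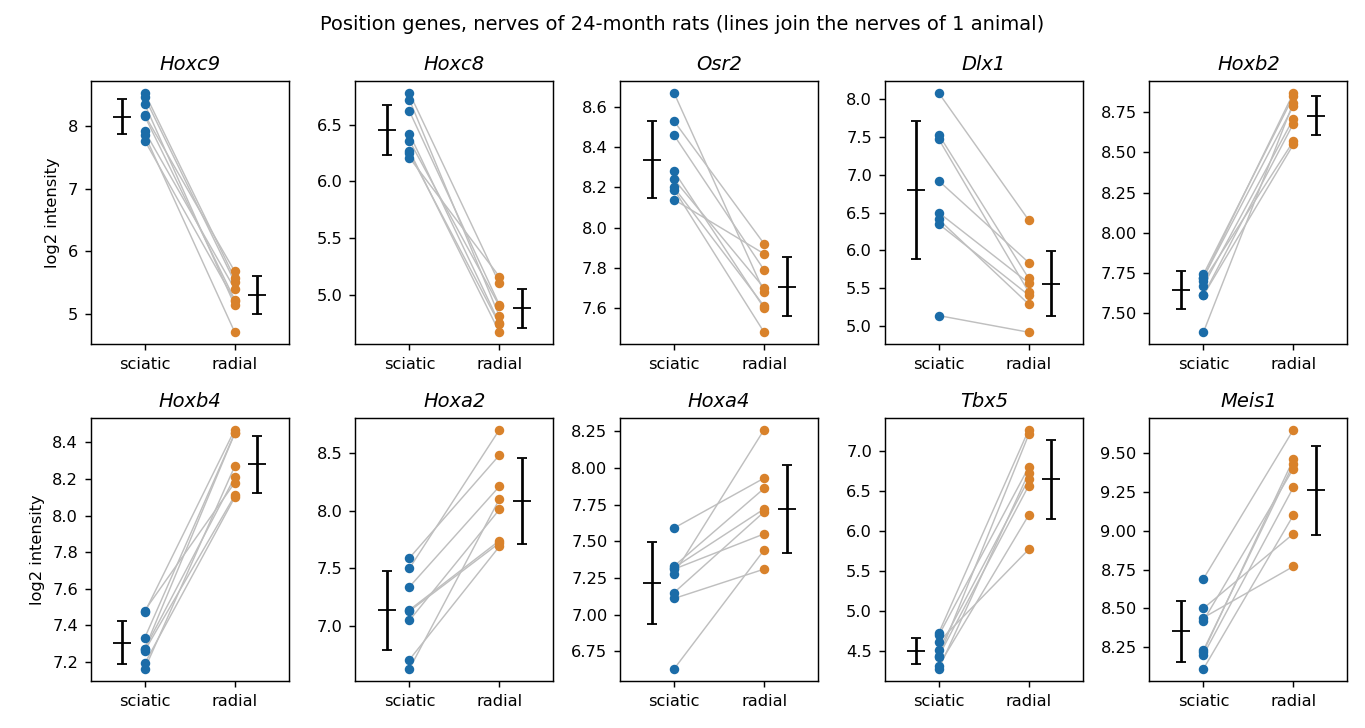
Log2 intensity of 10 position genes in the sciatic (blue, left) and radial (orange, right) nerve of 8 rats aged 24 months, with the mean and SD beside the points and lines that join the nerves of 1 animal. The vertical scales differ between genes. Hoxc9, Hoxc8 and Osr2 lie higher in each sciatic nerve, Hoxb2, Hoxb4, Hoxa2, Tbx5 and Meis1 lower, with no overlap, and the Hoxa4 and Dlx1 ranges overlap.

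Of 23 axonal and neuronal transcripts measured, 0 were higher and 2 lower in the sciatic nerve, against 1.96% and 1.6% of all genes, with a median of -0.04. Nefh, the heavy neurofilament of large axons, lay at 5.63 to 6.27 in sciatic nerves against 6.29 to 7.97 in radial nerves, which just failed to meet, and the difference was -0.89 ± 0.14 (adjusted p = 0.0145). Calca, which encodes the sensory neuropeptide CGRP, was lower in 8 of 8 animals (-0.77 ± 0.10, adjusted p = 0.00862) in its brightest probe set, but its other probe sets, at mean levels of 4.90 and 5.29 in the sciatic nerve, were not called (adjusted p = 0.433 and 0.231). The light and medium neurofilaments Nefl and Nefm differed by 0.13 ± 0.26 and 0.15 ± 0.29 and were not called.

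Npy, the neuropeptide of sympathetic axons, lay at 7.34 to 9.19 in the sciatic nerve (median 8.53) and at 9.27 to 11.34 in the radial nerve (median 10.21). The animals differed among themselves, yet the difference within a pair stayed between -2.15 and -1.57 in each animal (mean -1.86 ± 0.08, adjusted p = 3.56e-06). Stmn3, a microtubule regulator of neurons, was lower (-1.41 ± 0.12, adjusted p = 0.000907), as were Pcp4, a small calmodulin-binding protein (-1.66 ± 0.15, adjusted p = 0.00124), and Ckmt1, the mitochondrial creatine kinase (-1.31 ± 0.11, adjusted p = 0.000907). In these 3 genes, as in Npy, the sciatic values did not overlap the radial values, and each call held in all alternatives tried.

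Immediate early genes, which code for transcription factors and feedback regulators that cells switch on soon after a stimulus, were lower in the sciatic nerve in 7 of 12 members measured and higher in 0, against 1.6% and 1.96% of all genes, with a median of -0.66 against 0.00 over all genes. Fosb, a partner of Jun in the AP-1 factor, lay at 6.83 to 7.77 (median 6.94) in sciatic nerves, against 8.66 to 11.94 (median 9.82) in radial nerves. The sciatic nerves were all low and close together, the radial nerves were spread over more than 3 log2 units, and the groups did not overlap. The difference was -2.82 ± 0.37 (adjusted p = 0.00795), the lowest among genes named by the rule.

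The ranges of the other called members overlapped between nerves. Ier2, a regulator of early transcription, was lower in 8 of 8 animals (-1.02 ± 0.12, adjusted p = 0.00541), with medians of 9.77 in sciatic and 10.97 in radial nerves. Egr1, a zinc-finger factor, was lower in 8 of 8 animals (-1.01 ± 0.15, adjusted p = 0.0122), and the nuclear receptor Nr4a1, which is induced by stress and calcium, likewise (-0.69 ± 0.09, adjusted p = 0.00795). Dusp1, a phosphatase that switches off MAP kinases, was lower in 8 of 8 animals (-0.68 ± 0.12, adjusted p = 0.019). Junb, a Jun family factor (-0.76 ± 0.15, adjusted p = 0.0283), and Zfp36, which destabilises cytokine mRNAs (-0.65 ± 0.14, adjusted p = 0.0391), were lower in 7 of 8 animals. The calls of Fosb, Ier2, Egr1 and Nr4a1 held with any 1 animal left out. That of Dusp1 was lost without animal 6 or 8 (highest adjusted p = 0.0513), that of Junb without animal 2, 4, 5, 6 or 8 (highest adjusted p = 0.0733), and that of Zfp36 with each of 7 animals left out in turn (highest adjusted p = 0.0943).

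Related genes outside the list were lower too. The rule named Ccn1 and Ptgs2 for their low differences, so their direction was fixed by that choice. Ccn1, a matrix-bound signalling protein induced in the same manner, was lower in 8 of 8 animals (-1.97 ± 0.24, adjusted p = 0.00487), with 7.44 to 10.01 in the sciatic nerve and 9.42 to 12.32 in the radial nerve. Ptgs2, the inducible cyclooxygenase, was lower (-1.29 ± 0.21, adjusted p = 0.0163) with no overlap. Ccn2, a relative of Ccn1 chosen after its values were seen, was lower (-0.60 ± 0.06, adjusted p = 0.00239). Blood cell and smooth muscle transcripts moved alongside: the blood cell list was lower in the sciatic nerve of 7 of 8 animals (medians 7.36 and 8.44), and the 13 smooth muscle genes all had negative differences (median -0.37), of which 1, Abcc9, was called. With the blood cell mean as a covariate none of the 7 members was called: Fosb differed by -2.61 (adjusted p = 0.0715), Ier2 by -0.95 (adjusted p = 0.0533), Nr4a1 by -0.67 (adjusted p = 0.0651), Egr1 by -0.92 (adjusted p = 0.0872) and Dusp1 by -0.60 (adjusted p = 0.121), and Junb and Zfp36 had adjusted p = 0.17 and 0.167. The calls of Ccn1 and Ptgs2 were lost as well (adjusted p = 0.0506 and 0.11), and that of Ccn2 was kept (adjusted p = 0.0279). In the 10 arrays with low muscle 2 of the 7 were called, Fosb and Ier2. The part of smooth muscle in these differences was not tested. That of blood cannot be told apart from the nerve, which the blood cell mean followed in 7 of 8 animals.

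**Figure D3:**
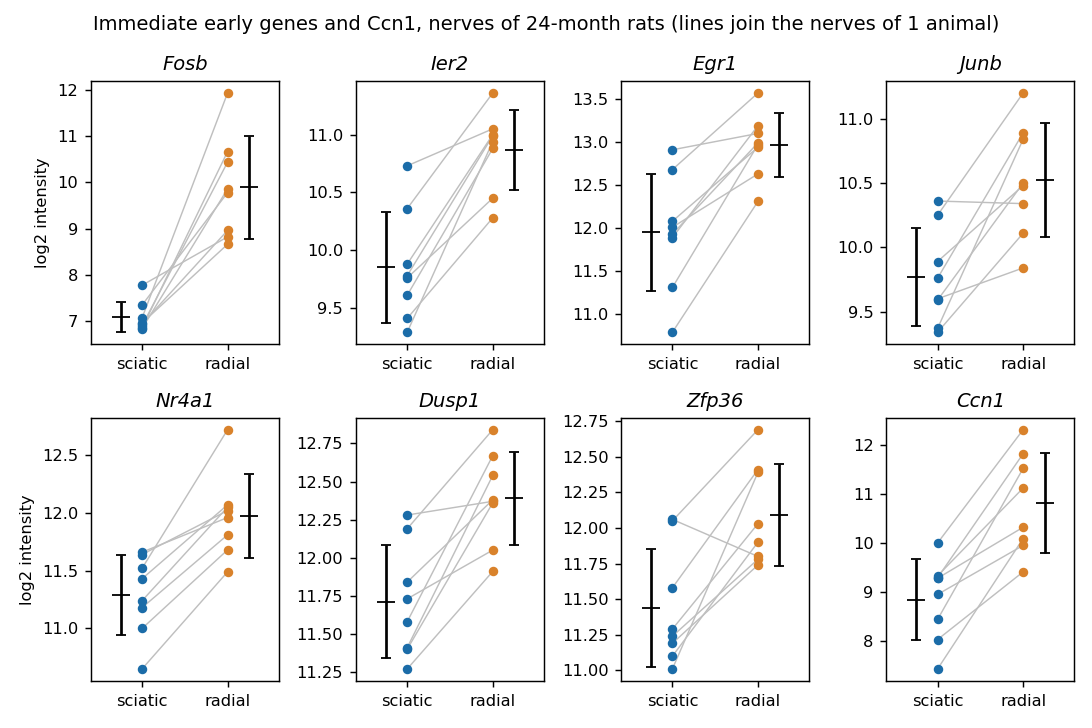
Log2 intensity of 7 immediate early genes and Ccn1 in the sciatic (blue, left) and radial (orange, right) nerve of 8 rats aged 24 months, with the mean and SD beside the points and lines that join the nerves of 1 animal. The vertical scales differ between genes. Fosb lies between 6.83 and 7.77 in each sciatic nerve and above 8.6 in each radial nerve, and the other genes overlap between nerves while most lines run upward to the radial nerve.

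The promoters of these genes are shown because they were lower together. The 250 bases before the start of each gene were read from RefSeq sequence of rat assembly GRCr8, which holds all 7 called members, and were searched on both strands for the CArG box of serum response factor and for the palindromic cyclic AMP element TGACGTCA. A CArG box stood in 2 of 7 (Egr1 and Zfp36), against 1.5% of 33469 promoters of the same length, and TGACGTCA in 2 of 7 (Ier2 and Dusp1), against 1.59%. Fosb, Junb and Nr4a1 had neither in this window. A match is a description of the letters and not of a bound site. Below, the CArG box (Zfp36) or the cyclic AMP element (Ier2, Dusp1) is in capitals, 5′ to 3′ on the strand of the gene.
Zfp36, chr1:92799109-92799358, minus strand: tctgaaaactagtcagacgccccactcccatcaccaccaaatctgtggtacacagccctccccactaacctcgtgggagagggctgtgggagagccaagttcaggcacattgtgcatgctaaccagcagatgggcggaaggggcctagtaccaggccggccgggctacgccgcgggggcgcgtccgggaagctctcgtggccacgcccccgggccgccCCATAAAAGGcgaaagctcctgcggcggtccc
Ier2, chr19:40399123-40399372, plus strand: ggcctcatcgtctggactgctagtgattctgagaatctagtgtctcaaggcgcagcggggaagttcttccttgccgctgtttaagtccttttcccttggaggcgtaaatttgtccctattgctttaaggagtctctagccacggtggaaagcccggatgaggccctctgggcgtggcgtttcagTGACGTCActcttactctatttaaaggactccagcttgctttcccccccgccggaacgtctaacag
Dusp1, chr10:17184603-17184852, plus strand: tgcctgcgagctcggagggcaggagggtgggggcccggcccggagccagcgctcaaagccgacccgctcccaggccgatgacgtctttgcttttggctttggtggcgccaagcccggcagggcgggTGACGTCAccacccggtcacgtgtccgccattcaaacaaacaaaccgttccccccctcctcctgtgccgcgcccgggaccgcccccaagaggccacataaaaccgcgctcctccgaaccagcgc

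Of 17 enzymes of cholesterol synthesis measured, 6 were lower and 0 higher in the sciatic nerve of old rats, against 1.6% and 1.96% of all genes. All 17 had negative differences, with a median of -0.31 against 0.00 over all genes. This pathway was singled out by the study on the same arrays, so its direction is not independent evidence. Idi1, which makes the isoprenoid building block, lay at 9.70 to 10.18 (median 9.90) in sciatic nerves, against 10.28 to 11.29 (median 10.61) in radial nerves. The groups did not overlap, and the difference was -0.82 ± 0.11 (adjusted p = 0.0104). Fdft1, the squalene synthase, was lower in 7 of 8 animals (-0.71 ± 0.11, adjusted p = 0.0163), and both calls held with any 1 animal left out. In the 10 arrays with a skeletal muscle mean under 9 both were lost, at -0.75 (adjusted p = 0.0644) for Idi1 and -0.74 (adjusted p = 0.0601) for Fdft1. With the blood covariate Idi1 was called (-0.93, adjusted p = 0.0372) and Fdft1 was not (-0.77, adjusted p = 0.0753).

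The calls of the later enzymes were less firm. Sqle, the squalene epoxidase (-0.66 ± 0.14, adjusted p = 0.0393), Cyp51, the lanosterol demethylase (-0.61 ± 0.13, adjusted p = 0.0388), Sc5d, a sterol desaturase (-0.44 ± 0.09, adjusted p = 0.0333), and Msmo1, a methylsterol oxidase (-0.43 ± 0.09, adjusted p = 0.0414), were lower in 7 of 8 animals each. In all 4 the call was lost with each of 6 or 7 animals left out in turn, with adjusted p up to 0.0969. A dimmer probe set of Cyp51 was called (-0.56 ± 0.10, adjusted p = 0.021) and one of Sc5d was not (-0.37 ± 0.11, adjusted p = 0.101). The mean of the list lay at 9.37 to 9.64 in the sciatic nerves and at 9.48 to 10.21 in the radial nerves, so the old sciatic nerves were close together and low while the radial nerves were spread. Animal 2 was the exception, with a list mean of 9.61 in the sciatic and 9.48 in the radial nerve.

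Other genes of the sterol and fatty acid programme were lower in part. Among 17 lipid genes related to SREBP, 2 were lower and 0 higher, with a median of -0.05. Srebf2, the factor that drives the sterol enzymes, lay at 10.68 to 10.91 in sciatic nerves against 10.99 to 11.32 in radial nerves, with no overlap (-0.33 ± 0.05, adjusted p = 0.0122), although a dimmer probe set, at 4.90 and 4.95, was not called. Elovl6, a fatty acid elongase, was lower in 8 of 8 animals (-0.90 ± 0.15, adjusted p = 0.0177), a call lost without animal 5 (adjusted p = 0.0509). Of 12 genes of sterol efflux and storage, 2 were higher and 1 lower. Mylip, which degrades the LDL receptor, was higher by 0.25 ± 0.04 and Apod, a lipid carrier of the nerve, by 0.30 ± 0.07, while Ch25h, which makes hydroxycholesterol, was lower (-1.07 ± 0.17, adjusted p = 0.0159). The calls of Mylip and Apod were lost without animal 3, 5, 6 or 8 among others (highest adjusted p = 0.0556 and 0.109). Of 18 myelin genes, 1, Myrf, was higher and 0 lower, with a median of -0.06.

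The promoters of Idi1 and Msmo1 are shown as examples of the pathway. The sterol element TCACNCCAC was found on either strand in 0 of 4 promoters of called enzymes that the RefSeq table holds (Idi1, Sc5d, Cyp51 and Msmo1) and in 0.974% of 33469 promoters. The CCAAT box, a shorter motif, stood in 3 of 4 called enzymes and in 8 of 10 enzymes that were not called, against 34.0% of all promoters, so most enzymes had it, called or not. The CCAAT boxes, read on either strand, are in capitals.
Idi1, chr17:66547525-66547774, minus strand: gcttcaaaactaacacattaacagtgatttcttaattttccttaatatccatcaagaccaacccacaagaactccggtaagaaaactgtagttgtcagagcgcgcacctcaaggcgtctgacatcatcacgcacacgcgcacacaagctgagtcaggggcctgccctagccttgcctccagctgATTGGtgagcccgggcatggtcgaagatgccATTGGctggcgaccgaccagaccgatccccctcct
Msmo1, chr16:29746863-29747112, plus strand: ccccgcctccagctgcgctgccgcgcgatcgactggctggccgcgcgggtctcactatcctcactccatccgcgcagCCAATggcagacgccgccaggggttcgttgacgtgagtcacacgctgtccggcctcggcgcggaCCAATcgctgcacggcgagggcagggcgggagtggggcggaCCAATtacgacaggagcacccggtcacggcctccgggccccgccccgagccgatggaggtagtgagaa

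**Figure D4:**
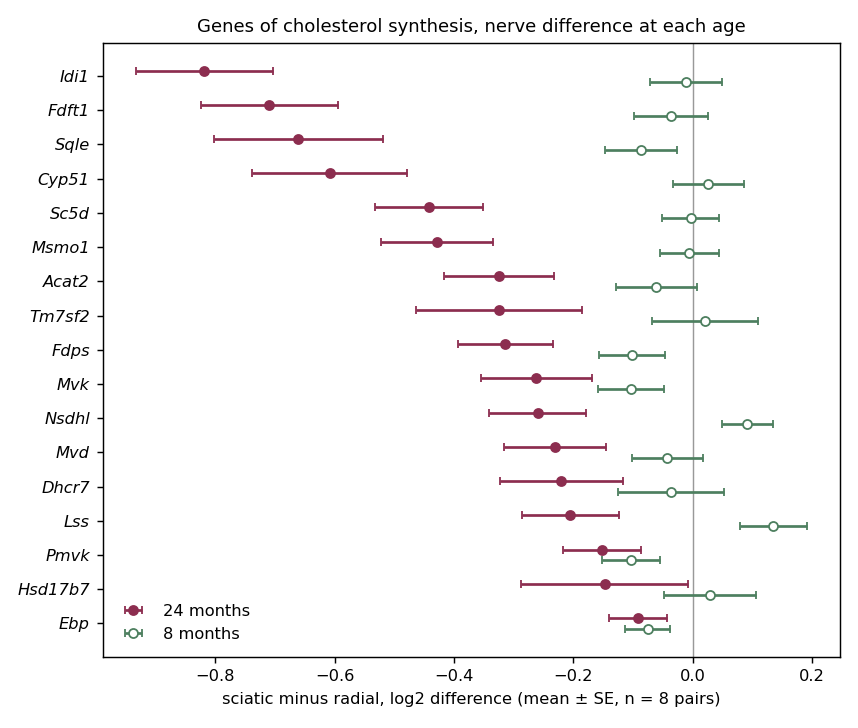
Sciatic minus radial log2 difference (mean and SE, 8 pairs) of 17 genes of cholesterol synthesis in 24-month rats (filled points) and 8-month rats (open points). All 17 differences are below 0 at 24 months, down to -0.82 in Idi1, with a median of -0.31, and scatter around a median of -0.04 at 8 months.

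Trophic factors and genes of the repair Schwann cell were higher in the sciatic nerve in some members. Of 18 repair genes, 5 were higher and 0 lower, against 1.96% and 1.6% of all genes, with a median of 0.14, and of 28 neurotrophic factors and receptors 3 were higher and 0 lower, with a median of 0.06. Differences were positive in 12 and negative in 6 repair genes, and positive in 16 and negative in 12 neurotrophic genes. In limma's test 6 repair genes were higher and 3 lower at an unadjusted p under 0.05. Of the neurotrophic genes 7 were higher and 3 lower, where 21.1% of all genes passed in either direction. The lists share Fgf5 and Ngfr. Fgf5, a fibroblast growth factor, lay at 6.06 to 8.61 (median 7.38) in sciatic nerves, against 4.88 to 6.92 (median 5.73) in radial nerves. The groups overlapped but the sciatic nerve was higher in 8 of 8 animals (1.45 ± 0.22, adjusted p = 0.0134). Ngfr, the p75 neurotrophin receptor, was higher in 8 of 8 animals by 1.09 ± 0.20 (adjusted p = 0.0223), with medians of 11.49 and 10.20. The call of Fgf5 held with any 1 animal left out, and that of Ngfr was lost without animal 2, 3, 4, 5 or 8 (highest adjusted p = 0.0613). With the blood covariate both calls were lost (adjusted p = 0.0854 for Fgf5 and 0.0922 for Ngfr). In the 10 arrays with a skeletal muscle mean under 9, Ngfr differed by 0.25 (adjusted p = 0.65) and Fgf5 by 0.98 (adjusted p = 0.27).

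Gap43, a growth cone protein that repair Schwann cells also make, lay at 9.69 to 11.01 in sciatic nerves against 9.08 to 9.97 in radial nerves, and was higher in 8 of 8 animals (0.88 ± 0.13, adjusted p = 0.0118). Sox2, which opposes myelination (0.51 ± 0.11, adjusted p = 0.0392), Btc, an EGF family ligand (0.75 ± 0.17, adjusted p = 0.0435), and Gfra1, the GDNF co-receptor (0.53 ± 0.11, adjusted p = 0.0374), were higher in 7 of 8 animals, and each of these 3 calls was lost with each of 6 or 7 animals left out in turn (highest adjusted p = 0.103). In the 10 arrays with low muscle they differed by 0.10 (Sox2), 0.36 (Btc) and 0.15 (Gfra1), with adjusted p = 0.745, 0.336 and 0.61, and Gap43 by 0.82 (adjusted p = 0.142). The dimmer probe sets of Sox2 and Gap43 were not called, and that of Gfra1 was (0.59 ± 0.12, adjusted p = 0.0328). Bdnf, the neurotrophin, has a pair of probe sets that disagreed. The brighter was not called (0.07 ± 0.07, adjusted p = 0.646). The other lay at 4.62 to 5.97 in sciatic nerves against 4.18 to 4.52 in radial nerves, higher in 8 of 8 animals (0.86 ± 0.11, adjusted p = 0.00795), but near the lower end of the scale. The study singled out Bdnf, Fgf5 and Ngfr on the same arrays.

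Complement genes were higher in the sciatic nerve in 5 of 13 members and lower in 0, against 1.96% and 1.6% of all genes, with a median of 0.25. C3, the central component, lay at 7.87 to 11.24 (median 9.07) in sciatic nerves, against 6.30 to 8.88 (median 7.76) in radial nerves. It was higher in 8 of 8 animals by 1.70 ± 0.25 (adjusted p = 0.0122). Cfi, a protease that cleaves C3b, was higher by 1.31 ± 0.20 (adjusted p = 0.0134), with 6.04 to 7.50 in the sciatic nerve and 4.87 to 6.27 in the radial nerve. Cfb, of the alternative pathway (0.70 ± 0.12), Serping1, the C1 inhibitor (0.33 ± 0.07), and C1r, a protease of the classical pathway (0.25 ± 0.06), were also higher in 8 of 8 animals. The calls of C3 and Cfi held with any 1 animal left out. Without animal 1, whose sciatic nerve had the highest C3 value and the highest macrophage mean, C3 was higher by 1.47 (adjusted p = 0.00757). In the 10 arrays with low muscle both calls were lost, at 1.42 for C3 (adjusted p = 0.265) and 0.92 for Cfi (adjusted p = 0.145), and with the blood covariate that of C3 was lost too (1.69, adjusted p = 0.0807). The calls of Cfb, Serping1 and C1r were lost without animal 3, 5 or 8 among others (highest adjusted p = 0.105). In adult rats 9 of the 13 members were higher in the sciatic nerve and 0 lower, against 5.22% and 4.84% of all genes. Their adult median was 0.47, and 0 members had a called difference between ages.

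Several immune lists had no called member in limma's test. Over all genes 2838 of 13438 (21.1%) had an unadjusted p under 0.05, the share against which the unadjusted counts here and below can be read. Of 18 macrophage genes 0 were called (1 at an unadjusted p under 0.05, median 0.00), and of 16 T and NK cell genes 0 (0 unadjusted). Of 25 chemokines and cytokines 0 were called (8 unadjusted), and of 19 interferon-stimulated genes 0 (3 unadjusted). In the B cell list Cr2, a complement receptor, was higher by 0.32 ± 0.06 at a low level (medians 4.84 and 4.52), and among antigen presentation genes Tap2, a peptide transporter, was lower (-0.47 ± 0.11). Both calls were lost without several single animals (highest adjusted p = 0.0756 and 0.109). The dimmer probe sets of Cr2 were not called and had the other sign. Clec1b, a receptor of platelets and myeloid cells, was lower with no overlap, at 5.85 to 6.49 in the sciatic nerve and 6.79 to 8.55 in the radial nerve (-1.50 ± 0.11, adjusted p = 0.000273). Hba-a3, an alpha globin of red cells, was lower in 7 of 8 animals (-1.32 ± 0.27, adjusted p = 0.0326), a call lost with each of 7 animals left out in turn (highest adjusted p = 0.083). Platelets carry Clec1b, and with the blood cell mean as a covariate it differed by -1.42 (adjusted p = 0.00661).

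Of 17 cell cycle genes measured, 3 were higher and 0 lower, against 1.96% and 1.6% of all genes, 16 of 17 differences were positive, and the median was 0.40. Tyms, the thymidylate synthase, did not overlap between nerves, at 6.77 to 7.46 in the sciatic nerve and 6.42 to 6.68 in the radial nerve (0.45 ± 0.07, adjusted p = 0.0122). Rrm2, a ribonucleotide reductase subunit, was higher by 0.87 ± 0.20 and Cdc20, a mitotic activator, by 0.31 ± 0.07, in 7 of 8 animals each, and both calls were lost with each of 7 animals left out in turn (highest adjusted p = 0.11). The other 4 probe sets of Cdc20 were not called. Of 13 senescence genes 2 were higher and 0 lower, with 7 positive and 6 negative differences and a median of 0.04. In limma's test 3 had an unadjusted p under 0.05, 2 higher and 1 lower. Cdkn2b, which encodes the cell cycle inhibitor p15, was higher in 8 of 8 animals by 1.10 ± 0.17 (adjusted p = 0.0157). Mmp3, the stromelysin, lay at 4.71 to 9.24 in sciatic nerves against 4.94 to 5.92 in radial nerves. Its sciatic values were spread over more than 4 log2 units, and the difference of 2.27 ± 0.38 (adjusted p = 0.019) was lost as a call without animal 5 or 6 (highest adjusted p = 0.053).

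Of 28 genes of the extracellular matrix measured, 5 were higher and 1 lower, against 1.96% and 1.6% of all genes, and 22 differences were positive, with a median of 0.10. Lox, the enzyme that cross-links collagen and elastin, lay at 10.31 to 10.91 in sciatic nerves against 9.41 to 10.17 in radial nerves, with no overlap (0.69 ± 0.08, adjusted p = 0.00487). Thbs4, a thrombospondin, was higher by 0.89 ± 0.15 (adjusted p = 0.0181), and Col8a1 by 0.67 ± 0.14, Col15a1 by 0.25 ± 0.05 and Col6a1 by 0.25 ± 0.05, all collagen chains. Eln, which encodes elastin, was lower in 8 of 8 animals (-0.86 ± 0.14, adjusted p = 0.0157), with medians of 10.45 in sciatic and 11.46 in radial nerves. The calls of Lox and Eln held with any 1 animal left out. That of Thbs4 was lost without animal 8 (adjusted p = 0.0507), and those of the 3 collagens without animal 3, 5, 6 or 8 among others (highest adjusted p = 0.0805). A dimmer probe set of Lox (0.42 ± 0.11, adjusted p = 0.0613) and one of Eln (-0.60 ± 0.16, adjusted p = 0.071) had the same sign and were not called.

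Other stromal genes came in by the size of their difference. Col6a5, a further collagen VI chain, lay at 10.66 to 11.08 in sciatic nerves against 9.12 to 10.51 in radial nerves (1.17 ± 0.14, adjusted p = 0.00487), without overlap. Ndnf, a secreted neurotrophic protein, was higher by 1.17 ± 0.16 (adjusted p = 0.0081) in its brighter probe set, also without overlap. Its sciatic value in animal 1 (8.60) stood far above the other sciatic values, and its dimmer probe set, at 4.58 and 4.61, was not called. Hmcn2, a hemicentin of basement membranes, was lower (-1.82 ± 0.20, adjusted p = 0.00363), as was Itga8, an integrin of mesenchyme and smooth muscle (-1.43 ± 0.24, adjusted p = 0.0181), each with separate ranges. Adamts8, a secreted protease, was lower (-1.27 ± 0.13, adjusted p = 0.00239). The call of Itga8 was lost without animal 8 (adjusted p = 0.0524), and the other 4 held with any 1 animal left out.

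Secreted Wnt regulators differed in both directions. Of 30 Wnt and BMP genes, 3 were higher and 1 lower, with a median of 0.05. Frzb, a decoy of Wnt ligands in joints and limb mesenchyme, lay at 7.33 to 9.46 in sciatic nerves against 9.39 to 10.68 in radial nerves, and was lower in 8 of 8 animals (-1.55 ± 0.21, adjusted p = 0.00978). Sfrp4, a related decoy, was higher in 8 of 8 animals by 0.68 ± 0.11 (adjusted p = 0.0163), with medians of 12.47 and 11.86. The ligands Wnt16 and Wnt2b were higher by 0.80 ± 0.16 and 0.75 ± 0.15, calls that were lost with each of 6 animals left out in turn (highest adjusted p = 0.0817). Of 25 axon guidance genes, 2 were higher and 1 lower: Sema3c, a semaphorin, was higher in 8 of 8 animals by 0.46 ± 0.07 (adjusted p = 0.0145), Robo2, a Slit receptor, in 7 of 8 by 0.59 ± 0.13, and Slit3, a Slit ligand, was lower in 8 of 8 (-0.40 ± 0.09). The Robo2 and Slit3 calls were lost without most single animals (highest adjusted p = 0.104 and 0.114). The dimmer probe sets of Robo2 were not called. Among 13 retinoid genes, Aldh1a2, which makes retinoic acid, was higher in 7 of 8 animals by 0.59 ± 0.13 (adjusted p = 0.0389), a call lost with each of 7 animals left out in turn (highest adjusted p = 0.0863).

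The sheaths and vessels gave single calls. All 9 perineurial genes had positive differences (median 0.22), and 1, Msln, a mesothelial surface protein, was called (0.76 ± 0.17). Pdpn, of lymphatic vessels and fibroblasts, was higher by 0.42 ± 0.07, and Scx, a tendon factor, lower (-0.40 ± 0.08). Of 13 endothelial genes 12 differences were negative (median -0.24), with 0 called by limma and 7 at an unadjusted p under 0.05. Abcc9, a channel subunit of pericytes, was lower in 7 of 8 animals (-0.48 ± 0.09, adjusted p = 0.0303). Each of these 4 calls was lost without several single animals (highest adjusted p = 0.0954). A dimmer probe set of Abcc9 was not called (-0.41 ± 0.11, adjusted p = 0.076). Skeletal muscle genes had a median of -1.19 and adipocyte genes one of -0.22, with 0 called in either list (0 and 3 at an unadjusted p under 0.05), and the arrays rich in muscle came from both nerves. The lists for the clock, oxidative phosphorylation, the neuromuscular junction, epithelium and non-myelinating Schwann cells also had 0 called (3, 1, 3, 2 and 0 unadjusted).

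The remaining genes of the rule, which required the same sign in 8 of 8 animals, had varied roles. Akr1c3, an aldo-keto reductase of steroids, was higher in 8 of 8 animals by 1.23 ± 0.18 (adjusted p = 0.0119), and Steap1, a metalloreductase, by 1.16 ± 0.23 (adjusted p = 0.0283). Steap2, its relative, chosen after its values were seen, was higher by 0.95 ± 0.09 (adjusted p = 0.00124) with no overlap. Gpr83, a G protein-coupled receptor of the brain (0.99 ± 0.21), and Rab3b, a GTPase of vesicle release (0.98 ± 0.19), were higher in 8 of 8 animals. Grifin, a lens galectin (-1.38 ± 0.29, adjusted p = 0.0341), and Spink8, a protease inhibitor (-1.29 ± 0.29, adjusted p = 0.0446), were lower in 8 of 8 animals. The calls of Steap1, Gpr83, Rab3b, Grifin and Spink8 were each lost without 5 or 7 single animals (highest adjusted p = 0.102).

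The nerve difference of old rats was then set beside that of adult rats. In adult rats 2786 probe sets (8.97%) were called, 1672 higher (5.39%) and 1114 lower (3.59%), and with 1 probe set per gene 1351 genes (10.1%), 701 higher (5.22%) and 650 lower (4.84%). Of the probe sets 411 were called at both ages, which is 38.4% of the calls in old rats and 14.8% of those in adult rats. Of these 411, 408 had the same sign, and 969 of the 1070 calls in old rats had the same sign in adult rats. Position genes and Npy differed the same way at both ages: Hoxc9 differed by 2.85 ± 0.09 in old and 3.50 ± 0.12 in adult rats, Tbx5 by -2.16 ± 0.15 and -1.90 ± 0.12, Hoxb2 by -1.09 ± 0.06 and -1.10 ± 0.06, and Npy by -1.86 ± 0.08 and -1.88 ± 0.21. None of these 4 differences between ages passed the test (adjusted p = 0.117, 0.689, 0.961 and 0.987). Fosb was lower in the sciatic nerve at both ages too (-2.82 ± 0.37 and -2.61 ± 0.33).

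The difference between ages was called for 43 probe sets (0.139%), 16 positive (0.0515%) and 27 negative (0.087%), and for 22 genes (0.164%), 9 positive (0.067%) and 13 negative (0.0967%). For 3 adult animals, replicates 4, 5 and 6, the source name of each array contradicts its title. The title was used, and by title Hoxc9 was higher in the sciatic nerve of 8 of 8 adult animals. By source name Hoxc9 would be lower in the sciatic nerve of those 3 animals. Without those 3 animals 24 probe sets were called. With the nerve taken from the source name instead, 36 were called, of which 13 were among the 43, and 13 of the 20 genes named for this difference lost their call. The other 7 were Rc3h2, Cfap299, Igf2bp2, Fgf5, Tbc1d15, Idi1 and Ckmt1. The count also ran between 9 and 77 with 1 animal of either age left out. Of 20 genes named for this difference, the calls of 3, Rc3h2, Ap4b1 and Tpsab1, held with any 1 animal left out.

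Mast cells are immune cells of the nerve sheath that store proteases and histamine. Of 14 mast cell genes measured, 6 had a called negative difference between ages, against 0.0967% of all genes. The rule named all of them but Fcer1a, which was named as a member of the list. In old rats the mast cell list had a median difference of -0.31 with 0 of 14 called by limma (6 at an unadjusted p under 0.05, all lower), whereas in adult rats 9 of 14 were higher in the sciatic nerve and the median was 0.48. Tpsab1, a tryptase, differed by -0.42 ± 0.10 in old rats and by 0.71 ± 0.10 in adult rats, a difference between ages of -1.12 ± 0.15 (adjusted p = 0.0148). Cma1, the chymase, gave -0.40 ± 0.14 and 0.69 ± 0.09 (-1.09 ± 0.17, adjusted p = 0.0218), and Cpa3, the mast cell carboxypeptidase, gave -0.38 ± 0.16 and 0.79 ± 0.10 (-1.17 ± 0.20, adjusted p = 0.0275). Another tryptase, Tpsb2 (-1.12 ± 0.18), the serotonin transporter Slc6a4 (-0.85 ± 0.16) and the IgE receptor chain Fcer1a (-1.21 ± 0.23) were the other 3. In old rats the list mean lay between 7.24 and 8.43 in the sciatic nerves and between 7.89 and 8.64 in the radial nerves, and was lower in the sciatic nerve in each of the 8 animals. It was lowest in the sciatic nerve of animal 4, the array with the highest muscle mean (11.68). In the 10 old arrays with a muscle mean under 9, the old difference was -0.10 for Tpsab1, 0.04 for Cma1, -0.04 for Cpa3, -0.13 for Tpsb2, -0.17 for Slc6a4 and 0.30 for Fcer1a. With the adult nerves taken from the source names all 6 age calls were lost, with the difference between ages at -0.77 for Tpsab1 (adjusted p = 0.245) and adjusted p up to 0.381. Those source names are the ones by which Hoxc9 would be lower in the sciatic nerve of 3 adult animals. Without 24-month animal 3 or 8-month animal 7 the calls of Cma1, Cpa3, Tpsb2, Slc6a4 and Fcer1a were lost (highest adjusted p = 0.116).

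Idi1 was the one sterol gene whose difference between ages was called, at -0.82 ± 0.11 in old rats and -0.01 ± 0.06 in adult rats (-0.81 ± 0.14, adjusted p = 0.0262). In adult rats Idi1 lay at 11.27 to 11.74 in the sciatic nerve and at 11.34 to 11.72 in the radial nerve. The adult nerves thus overlapped, and both stood above the old sciatic values. The adult radial values also stood above all old radial values, and the adult sciatic values above the old radial median. The call was lost without 24-month animal 3 or 4 or 8-month animal 1, 3 or 7 (highest adjusted p = 0.0627). Fdft1 differed by -0.71 ± 0.11 and -0.04 ± 0.06, which missed the threshold (adjusted p = 0.063). Ckmt1 was lower in the sciatic nerve at both ages and more so in old rats, at -1.31 ± 0.11 against -0.49 ± 0.08 (-0.81 ± 0.14, adjusted p = 0.0324). Tbc1d15, a GTPase regulator (-0.32 ± 0.05), Sytl3, a vesicle-docking protein (-0.52 ± 0.09), and Mid1, a ubiquitin ligase of microtubules (-0.37 ± 0.07), completed the named genes with a negative difference. A dimmer probe set of Tbc1d15 (0.08 ± 0.05 in old rats) and the dimmer ones of Mid1 (0.47 ± 0.13 and 0.02 ± 0.06) were not called and had the other sign. The calls of Ckmt1, Tbc1d15, Sytl3 and Mid1 were lost without 24-month animal 3 or 8-month animal 7, among others (highest adjusted p = 0.101).

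Among genes with a positive difference between ages, Fgf5 differed by 1.45 ± 0.22 in old and 0.05 ± 0.12 in adult rats (1.40 ± 0.27, adjusted p = 0.0495). Cfap299, a cilium-associated protein, lay between 7.61 and 8.67 in old sciatic nerves and between 6.18 and 7.59 in old radial nerves, just apart (1.19 ± 0.12), and differed by 0.13 ± 0.10 in adult rats (1.06 ± 0.17, adjusted p = 0.0218). Igf2bp2, an mRNA-binding protein, differed by 0.82 ± 0.12 in old and -0.00 ± 0.05 in adult rats (0.82 ± 0.14, adjusted p = 0.0262) in its brighter probe set, while a dimmer one was not called in old rats (0.13 ± 0.05). Rc3h2, an RNA-binding ubiquitin ligase, had the smallest adjusted p, at 0.48 ± 0.05 and -0.09 ± 0.05 (0.57 ± 0.06, adjusted p = 0.00192), and its 8 sciatic values of old rats did not overlap the radial ones. Myrf, the myelin regulatory factor of oligodendrocytes, gave 0.39 ± 0.07 and -0.19 ± 0.08 (0.58 ± 0.11, adjusted p = 0.0383). Ngfr, at 1.09 ± 0.20 and 0.08 ± 0.09, was not called (adjusted p = 0.0964), and the Bdnf probe set that was higher in old rats was called (0.86 ± 0.11 against -0.03 in adult rats, adjusted p = 0.0173).

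Smaller positive changes were seen for Ap4b1, an adaptor of vesicle sorting (0.54 ± 0.08, adjusted p = 0.0173), Akap6, a kinase anchor (0.51 ± 0.09, adjusted p = 0.0395), Emilin1, an elastic fibre protein (0.45 ± 0.08, adjusted p = 0.0396), and Bzw2, a translation regulator (0.44 ± 0.08, adjusted p = 0.0324). For Ap4b1, Emilin1 and Bzw2 the sciatic nerve was lower in adult rats (-0.35 ± 0.06, -0.28 ± 0.05 and -0.15 ± 0.04). The Akap6 probe set used here had a mean above 6 in neither old nerve. A dimmer one differed by 0.001 ± 0.09 in old rats and was not called (adjusted p = 0.996). The calls of Fgf5, Myrf, Akap6, Emilin1, Bzw2 and Igf2bp2 were lost without several single animals, 8-month animals 3, 7 and 8 among them, with adjusted p up to 0.116, and that of Cfap299 without 8-month animal 7 (adjusted p = 0.0627).

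**Figure D5:**
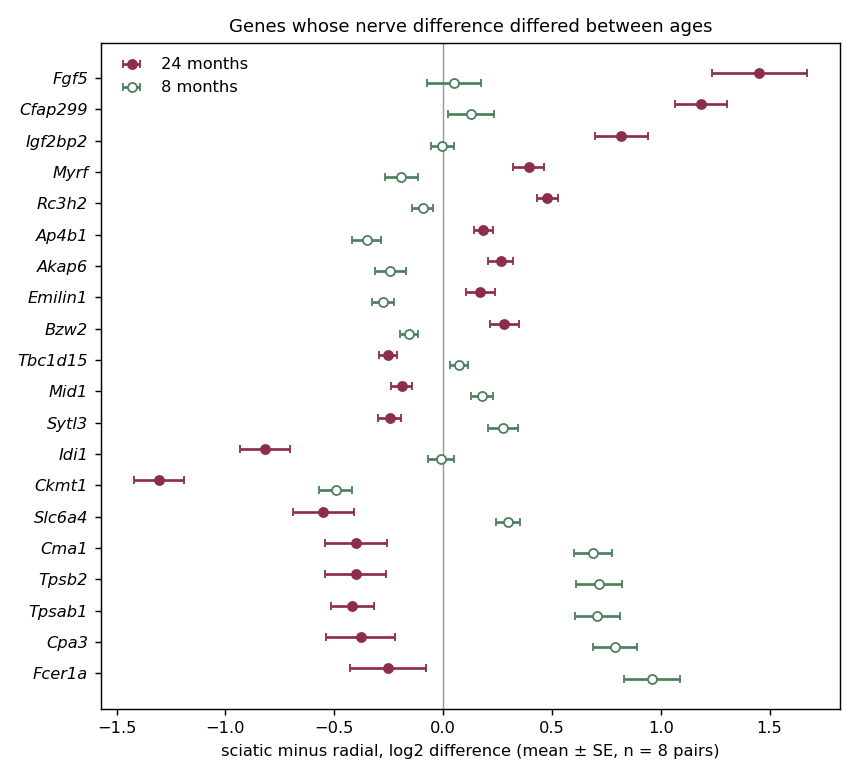
Sciatic minus radial log2 difference (mean and SE, 8 pairs) in 24-month rats (filled points) and 8-month rats (open points) for the 20 genes named for a difference between ages. Fgf5, at the top, differs by 1.45 in old and 0.05 in adult rats, and the mast cell genes at the bottom lie below 0 in old rats and above 0 in adult rats.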

How the data were processed

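The authors labelled nerve RNA with biotin, hybridised it to Affymetrix rat arrays and ran RMA in Expression Console (version not given in the sources used here). The deposited log2 intensities, with background corrected and arrays quantile normalized, entered the tests unchanged. Of 31139 probe sets 97 controls were left out. The platform annotation gave 19063 of the other 31042 a single symbol, gave several to 572 and left 11407 unnamed.

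Nerves of 24-month rats were compared with limma 3.58.1 in R 4.3.3 on 16 arrays, with the animal as a fixed block since each animal gave both nerves, moderated variances and Benjamini-Hochberg adjustment over 31042 probe sets. Tests were two-sided. The difference between ages was fitted on all 32 arrays with the animal as a block. Deviations from the group means correlated between the nerves of an animal at -0.10 to 0.43, above 0.1 in 5 of 8 animals. The number of arrays limits the precision. The tests were checked on simulated data.

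Named genes are the 15 highest and 15 lowest differences among called genes with the same sign in 8 of 8 animals, up to 10 each way for the difference between ages, members of 41 gene lists (582 genes measured) and genes singled out by the study. Provisional symbols were left out. Members and lists were chosen with earlier results of these data known. Alternatives were filters, the block, the variance prior, normalization, array weights, 1 probe set per gene, covariates for muscle and fat, and each animal left out. A covariate for blood and the 10 arrays with a muscle mean under 9 were added after the data had been seen. Those 10 arrays were fitted with the animal as a random block.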

Additional observations from a re-analysis of the deposited data

Results flagged for a closer look

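In 12 of 224 groups of 8 nerves checked (5.36%, where chance gives about 1 in 20), the highest or lowest value stood far from its nearest neighbour. The gap, on the log2 scale, was 1.12 above the others for Hba-a3 in the sciatic nerve of animal 3 and 1.06 above for Ndnf in that of animal 1. In the sciatic nerve of animal 4 the gap was -0.73 for Cma1, -0.68 for Meis2, -0.45 for Abcc9 and -0.44 for Sema3c, and that array also had the highest skeletal muscle mean (11.68). It was -0.23 for Hoxb2 in the sciatic nerve of animal 1 and -0.18 for Serping1 in that of animal 5. Among radial nerves it was 0.76 for Hoxa10 and 0.54 for Mmp3 in animal 2, 0.65 for Nr4a1 in animal 6 and -0.42 for Slc6a4 in animal 7.

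The nerve difference in old rats minus that in adult rats passed limma's test (adjusted p under 0.05) for 20 named genes. It was 0.57 for Rc3h2, 0.54 for Ap4b1, 1.06 for Cfap299, 0.82 for Igf2bp2, 0.44 for Bzw2, 0.58 for Myrf, 0.51 for Akap6, 0.45 for Emilin1 and 1.40 for Fgf5. Mast cell genes gave -1.12 for Tpsab1, -1.09 for Cma1, -1.12 for Tpsb2, -1.17 for Cpa3, -0.85 for Slc6a4 and -1.21 for Fcer1a. Idi1 and Ckmt1 each gave -0.81, Tbc1d15 -0.32, Sytl3 -0.52 and Mid1 -0.37.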

How the results depend on the processing

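The count of probe sets that differed between the nerves of old rats was 1070. It was 1899 with the animal as a random replicate block, 3050 in all 32 arrays with the animal fixed, 2420 in the study's design (a random block and a variability filter) and 1722 with array weights. It was 577 when 1 probe set per gene entered the adjustment (13438 tests, where adjustment over 31042 left 478 of them called), 66 at a fold above 2, 390 with the muscle covariate, 141 with the blood covariate and 155 in the 10 arrays with a muscle mean under 9. With 1 animal left out it ran between 304 (without animal 6) and 1212 (without animal 1), and it was 523, 371, 419, 322 and 325 without animals 2, 3, 4, 5 and 8. Without the replicate block it was 1051, of which 719 were also called with it. In the 10 arrays, Gpr83 (-0.068), Hoxd3 (0.0070), Emilin1 (-0.016), Cma1 (0.041) and Fcer1a (0.30) changed sign. Of 100 named genes called, 20 were called under each alternative run and 49 with any 1 animal left out.

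The count for the difference between ages was 43. It was 2 without the replicate block, 108 with a random block, 137 with array weights, 24 without the 3 adult animals whose source names and titles disagree, 36 (13 shared) with the nerve taken from the source name, and between 9 (without 8-month animal 7) and 77 (without 24-month animal 1) with 1 animal left out. The causes of these shifts were not tested. Probe sets near the lower end of the scale, such as those of Chat, Cr2 and Pitx1, cannot show small differences.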
